A study of Mus musculus with 12 samples.

Results

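The nascent RNA of mouse liver was compared between ZT4, the early light phase, and ZT16, the early dark phase (zeitgeber time is given in hours, with lights on at 0). The comparison used 4 libraries of the 12 in the series, ZT4 replicates 1 and 2 and ZT16 replicates 1 and 2. All animals were C57BL/6 mice, adult males of 3 to 6 months by the labels and the study's methods, kept in 12 hr of light and 12 hr of darkness for at least 2 weeks. No group carried a mutation or a treatment, so the groups differed in the time of collection. The livers had been collected as 2 independent series of 6 time points, and the number of animals behind a library is not given in the sources used here. Nascent-Seq sequences RNA that is still attached to chromatin in purified nuclei, after removal of polyadenylated RNA. Its values were given as the coverage over the exons of a gene symbol per base pair of exon (rpbp), brought to an equal number of mapped reads. A gene entered the comparison when it was over 6 rpbp in at least 1 of the 4 libraries, the limit of the study's methods, which left 5278 of 21490 gene symbols. A gene low at one time could enter through the other time alone, and such genes were bound to differ. A limit of 6 rpbp on the mean of the 4 libraries was also tried. It left 4064 genes, of which 742 had an unadjusted p under 0.05 (limma), against 909 of 5278. The smaller count thus came with fewer genes tested.

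The liver of a nocturnal rodent alternates between fasting in the light and feeding in the dark. Its clock is a feedback loop in which CLOCK and BMAL1 (Arntl) drive the genes of their own repressors, PER and CRY, and of the nuclear receptors REV-ERB (Nr1d1, Nr1d2), which compete with ROR receptors at shared sites. Glucocorticoids, insulin and the fed state act on many of the same metabolic genes.

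The 4 libraries were of similar size by the sum of their values, from 122892 to 129031 rpbp. They differed in level at a typical gene. The median deviation of a library from the mean of the 4 was 0.087 and 0.115 at ZT4, -0.048 in ZT16 replicate 1 and -0.171 in ZT16 replicate 2 on the log2(rpbp + 1) scale. The number of symbols over 6 rpbp was 4282 and 4302 at ZT4 but 3918 and 3390 at ZT16, and the 20 highest symbols held 23.4% and 23.0% of the sum at ZT4 against 29.5% and 31.9% at ZT16. The replicates of ZT4 were closer than those of ZT16. Of the genes above that limit in either replicate, 12.3% at ZT4 (585 of 4737) and 34.3% at ZT16 (1494 of 4353) were over 1.5-fold apart between replicates. Across the 5278 genes, Pearson's r between replicates was 0.929 at ZT4 and 0.809 at ZT16, a description over genes, which are not independent replicates. The median difference, ZT4 minus ZT16, was 0.21 in the deposited values and -0.003 after the libraries were rescaled to equal medians, so differences below are best read against this shift.

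No gene passed an adjusted p of 0.05 between the 2 libraries of ZT4 and the 2 of ZT16 (0 of 5278, 0%, limma with Benjamini-Hochberg adjustment). The smallest adjusted p was 0.0982. At an unadjusted p under 0.05 there were 909 genes (17.2% of those tested), 698 higher at ZT4 (13.2%) and 211 higher at ZT16 (4.0%). This split followed the level of the libraries: after rescaling to equal medians 691 genes had such a p (13.1%), 318 higher at ZT4 (6.03%) and 373 higher at ZT16 (7.07%), and 529 were in both sets, 58.2% of the first and 76.6% of the second. The count also rested on single libraries, with 327 genes without ZT4 replicate 1, 263 without ZT4 replicate 2, 1382 without ZT16 replicate 1 and 1022 without ZT16 replicate 2. When the spread was estimated over more libraries, genes did pass the adjusted threshold. With the 8 libraries of the time points run in 1 lane, 39 genes passed (0.739%), 22 higher at ZT4 (0.417%) and 17 higher at ZT16 (0.322%). With all 12 libraries 143 passed (2.71%), 93 higher at ZT4 (1.76%) and 50 higher at ZT16 (0.947%), and 107 after rescaling (2.03%), 43 higher at ZT4 (0.815%) and 64 higher at ZT16 (1.21%). Of these, 92 passed in both. These fits assume that a gene varies between replicates at the other times as it does at ZT4 and ZT16. Below, "passed with 12 libraries" means an adjusted p under 0.05 in the limma fit of all 12 libraries in the deposited values.

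**Figure D1:**
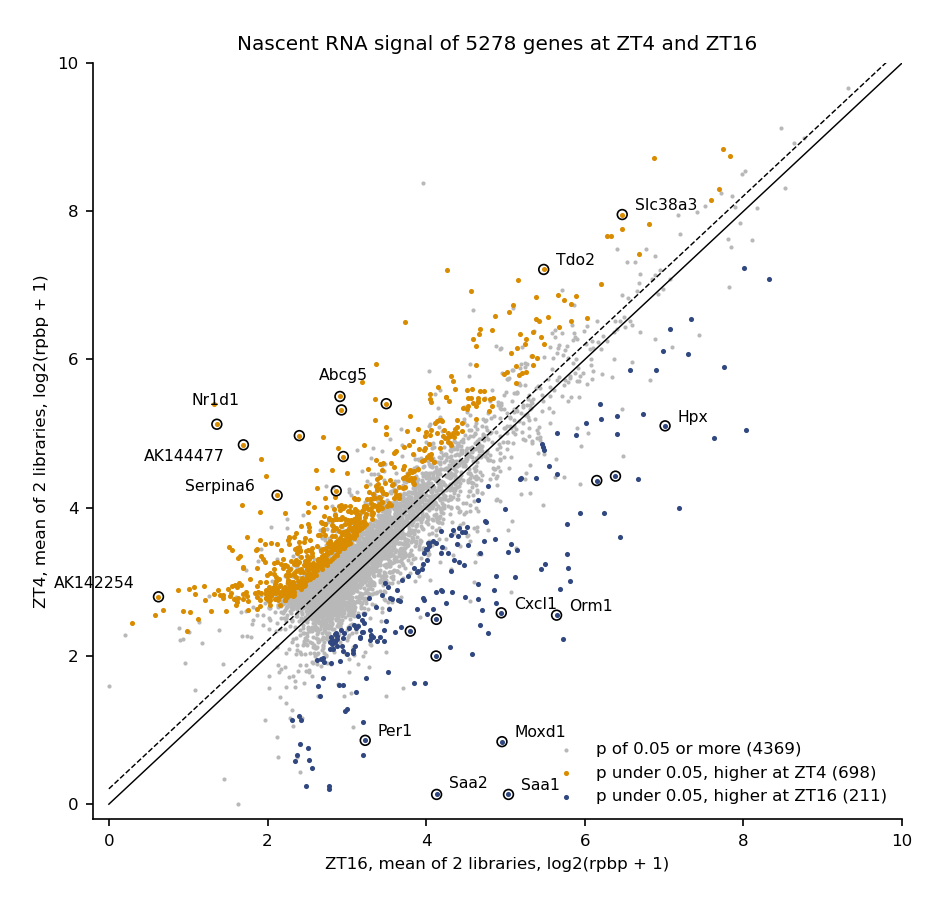
Each point is 1 of 5278 genes, with the mean log2(rpbp + 1) of the 2 ZT16 libraries on the x axis and of the 2 ZT4 libraries on the y axis. The solid line marks equal values and the dashed line the median difference of 0.21. Orange marks the 698 genes at an unadjusted p under 0.05 that were higher at ZT4 and blue the 211 that were higher at ZT16 (p under 0.05, limma), and circles mark the 24 genes named by rule.

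Of the 12 genes named by rule on the ZT4 side, the largest difference was that of Nr1d1, which encodes the clock repressor REV-ERB alpha. Its values were 37.6 and 30.6 rpbp at ZT4 and 1.0 and 2.3 rpbp at ZT16, a log2 difference of 3.76 (SE 0.31) with an adjusted p of 0.0982 from limma, and 0.00119 with 12 libraries. Both ZT4 libraries were far above both ZT16 libraries. Nr1d1 lies at chr11:98629249-98636556 (mm9, minus strand) and its end overlaps the end of Thra, the thyroid hormone receptor alpha gene of the opposite strand, by 1072 bases. Thra stood at 6.1 and 6.7 rpbp at ZT4 and at 1.4 and 1.8 rpbp at ZT16. The signal was summed without regard to strand, so reads of the overlap cannot be told apart.

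Genes of sterol and amino acid handling stood beside it. Abcg5, a subunit of the transporter that exports cholesterol into bile, had 37.6 and 52.1 rpbp at ZT4 against 8.3 and 5.1 rpbp at ZT16. Its partner Abcg8, whose start lies 207 bases away on the other strand, had 22.6 and 40.0 against 6.5 and 4.6 rpbp. In both genes the lower ZT4 library stood well above the higher ZT16 library. Tdo2, which opens the breakdown of tryptophan, had 144.9 and 150.2 rpbp at ZT4 and 41.4 and 46.1 rpbp at ZT16 (log2 difference 1.73, SE 0.18). Slc38a3, a glutamine transporter of hepatocytes, had 236.3 and 258.6 against 81.5 and 94.5 rpbp, the highest level among the 12. Agxt2l1, an enzyme that breaks down phosphoethanolamine, had 30.1 and 30.7 against 5.2 and 3.5 rpbp.

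The rest of the ZT4 set were secreted proteins and enzymes. Serpina6, the corticosteroid-binding globulin of plasma, had 20.8 and 13.8 rpbp at ZT4 and 3.4 and 3.3 rpbp at ZT16. F11, coagulation factor XI, had 37.2 and 45.9 against 11.5 and 9.2 rpbp. Cyp2c44, an arachidonic acid epoxygenase, had 36.6 and 41.4 against 8.4 and 5.2 rpbp. Gamt, the last enzyme of creatine synthesis, and Col5a3, a collagen chain, differed by 1.73 (SE 0.21) and 1.36 (SE 0.19) on the log2 scale, again without overlap between the times. The other 2 were cDNA clones with no matched gene, AK144477 at chr4:103055105-103164793 (24.0 and 32.2 against 2.5 and 2.0 rpbp) and AK142254 at chr19:36693908-36763969 (5.2 and 6.8 against 0.7 and 0.4 rpbp), the latter overlapping Hectd2 and a further clone. Of these 12 genes, 11 passed with 12 libraries, beside 1.76% of all genes higher at ZT4. They were picked by p in the same 4 libraries, and that fit takes the same difference, so passing is no separate support. The exception was F11, with an adjusted p of 0.0543 in that limma fit. After rescaling Gamt (0.0556) and Tdo2 (0.0704) no longer passed either.

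**Figure D2:**
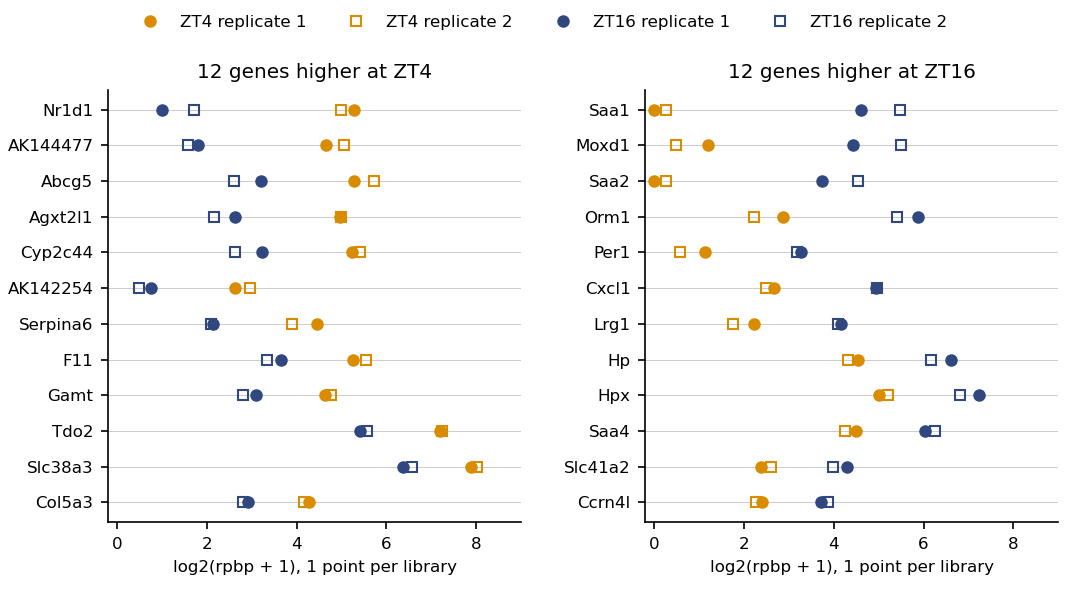
The 12 genes named by rule on each side, with 1 point per library on the log2(rpbp + 1) scale (orange ZT4, blue ZT16, filled circles replicate 1, open squares replicate 2). In all 24 genes both libraries of one time lie above both of the other, which the rule required.

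On the ZT16 side, 8 of the 12 named genes encode secreted proteins, most of them of the acute phase and Cxcl1 a chemokine. Saa1, serum amyloid A1, had 0.0 and 0.2 rpbp at ZT4 and 23.2 and 43.6 rpbp at ZT16, a log2 difference of -4.91 (SE 0.35), the largest of the 12 and with an adjusted p of 0.0982 from limma (0.000219 with 12 libraries). It lies at chr7:53995869-53998350 (mm9, minus strand). Saa2, its close copy on the same stretch of chromosome 7, had 0.0 and 0.2 against 12.3 and 22.1 rpbp. Both were at or near 0 at ZT4. Only uniquely mapped reads were kept, so the split of reads between such similar copies is uncertain. Saa4, the third gene of the cluster, had 21.4 and 18.0 rpbp at ZT4 and 64.8 and 75.7 rpbp at ZT16. Orm1, orosomucoid, had 6.3 and 3.7 against 57.7 and 41.6 rpbp, Hp, the hemoglobin-binding haptoglobin, 22.1 and 19 against 96.8 and 70.6 rpbp, and Hpx, the heme-binding hemopexin, 30.9 and 36.1 against 148.7 and 110.3 rpbp. In each of them the lower ZT16 library stood well above the higher ZT4 library. Lrg1, a leucine-rich plasma glycoprotein, had 3.7 and 2.4 against 16.9 and 16 rpbp, and Cxcl1, a chemokine that attracts neutrophils, 5.4 and 4.6 against 29.5 and 30.2 rpbp.

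Outside that group were Per1 and Ccrn4l, described with the clock, Moxd1, a copper monooxygenase with 1.3 and 0.4 against 20.5 and 43.8 rpbp, and Slc41a2, a magnesium transporter with 4.2 and 5.1 against 18.5 and 14.7 rpbp. Of these 12 genes, 11 passed with 12 libraries, beside 0.947% of all genes higher at ZT16. As on the ZT4 side, this follows largely from how the genes were picked. Hp was the exception in the deposited values (adjusted p of 0.0536 in that limma fit) and passed after rescaling (0.0337).

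The list of acute phase genes held 27 symbols, of which 26 were in the table and 21 were tested. Some, such as Saa1 and Saa2, entered through ZT16 alone and were bound to differ. The list was also chosen with earlier results of these data known, so its counts are a description. At an unadjusted p under 0.05, 14 of the 21 were higher at ZT16 and 0 higher at ZT4 (15 and 0 after rescaling), beside 4.0% and 13.2% of all genes. With 12 libraries 7 passed, and 9 after rescaling, all higher at ZT16. Both ZT16 libraries stood above both ZT4 libraries in 19 of the 21, where 11% of all genes did so. Replicates of the 2 times did not overlap in 54.1% of all genes (43.1% higher at ZT4), and in 47.7% after rescaling (24.0% and 23.7%). The median log2 difference was -1.24 over the 21 (-1.48 after rescaling), against 0.21 over all genes. The summed level of the 26 symbols in the table, tested or not, was 586 and 873 rpbp at ZT4 and 1552 and 1803 rpbp at ZT16. It was between 550 and 1034 rpbp in the 8 libraries of the other times.

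Several members of the list carry or relay the cytokine signal. Those of this paragraph other than Socs3 and Cebpb were chosen after their values were seen. Il1r1, the receptor for interleukin 1, had 7.1 and 7.6 rpbp at ZT4 against 21.5 and 52.3 rpbp at ZT16. Socs3, the feedback inhibitor of interleukin 6 signalling, had 2.3 and 2.2 against 9.8 and 7.3 rpbp. Cebpb, a transcription factor of the response, had 8.5 and 4.7 against 15.7 and 19.3 rpbp. In these 3 genes the times did not overlap, while Il6ra, the interleukin 6 receptor, had 7.0 and 11.5 against 15.7 and 11.7 rpbp (unadjusted p of 0.137, limma fit). The fibrinogen genes Fga, Fgb and Fgg reached 128, 148 and 114 rpbp in ZT16 replicate 1 and 193, 339 and 262 rpbp in ZT16 replicate 2, against 54.4 to 142.6 rpbp at ZT4, and 1 of the 3, Fga, had an unadjusted p under 0.05. The C-reactive protein gene Crp, which in mice responds weakly, had 69.8 and 80.7 rpbp at ZT4 and 81.7 and 55.2 rpbp at ZT16, with ZT16 on both sides of ZT4.

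The times next to ZT16 gave 2 patterns. Saa1 reached 3.0 and 3.6 rpbp at ZT12 and 0.2 and 0.0 rpbp at ZT20, and Cxcl1, Orm1, Hpx and Lrg1 also had their highest mean at ZT16. Saa4 was as high at ZT12, with 63.3 and 110.3 rpbp. Of the 21 tested genes, 15 had their highest time-point mean at ZT16, 4 at ZT12 and 2 at ZT20. Over all genes, 470 of 5278 were highest at ZT16. Of the 3 tested markers of macrophages, Clec4f had an unadjusted p under 0.05, and Cd5l and Csf1r overlapped between the times (unadjusted p of 0.594 and 0.515, limma fit). Over all genes 4.0% were higher at ZT16 at an unadjusted p under 0.05. The 11 symbols in the table summed to 42.8 and 37.7 rpbp at ZT4 and 62.5 and 47.2 rpbp at ZT16, within the 27.1 to 87.2 rpbp of the other times. Clec4f of Kupffer cells had 13.6 and 10.5 against 20.5 and 17.9 rpbp, and the neutrophil genes S100a8 and S100a9 were listed at 0 in all 4 libraries. The part of these cells in the acute phase values was not tested. In tissue, fewer cells of a type and less RNA per cell cannot be told apart.

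**Figure D3:**
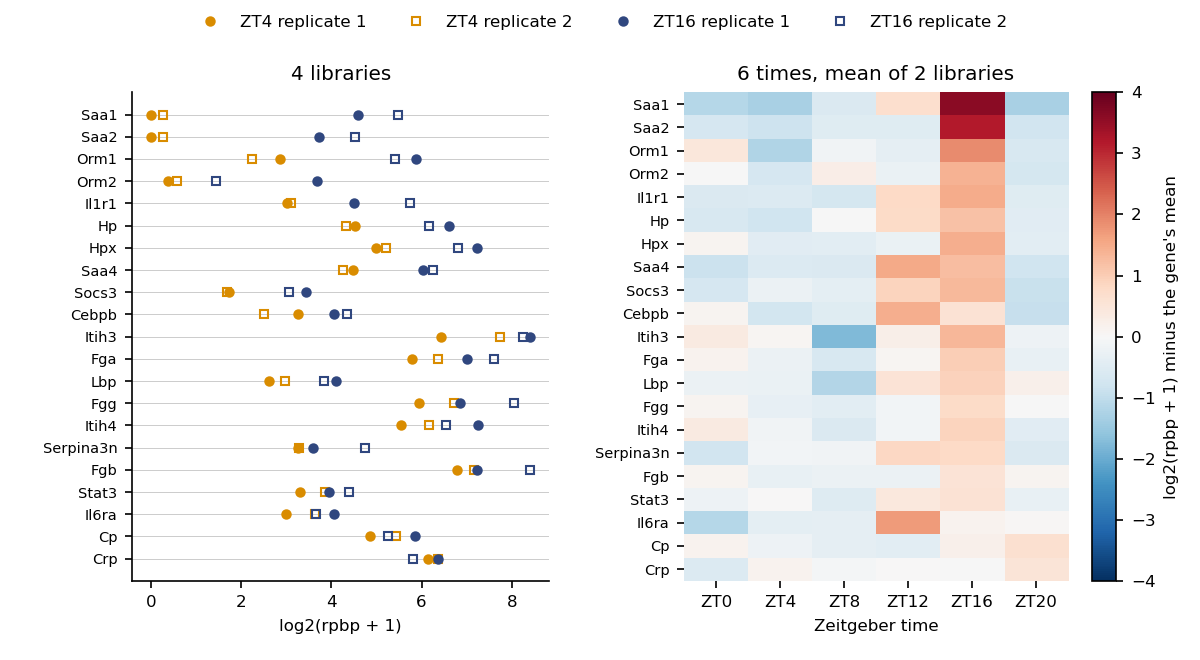
The 21 tested acute phase genes, ordered by their difference. On the left, log2(rpbp + 1) is shown in each of the 4 libraries (orange ZT4, blue ZT16, filled circles replicate 1, open squares replicate 2), and on the right the mean of each time point over 2 libraries minus the gene's mean over the 6 times. The ZT16 column is the reddest for 15 of the 21 genes, and Saa1 and Saa2 stand out.

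The promoters of these genes were read because their signals were higher together at ZT16. Of the 21 genes, 18 had an entry in the RefSeq promoter table (GRCm38.p6), and the 250 bases before the start were searched on both strands. The letters TTGCNNAA, bound by C/EBP factors, were found in 9 of the 18, against 10.3% of the 3269 tested genes with an entry and 10.8% of all 27025 genes of the table. They were also found in 2 of the 7 genes with an entry named on the ZT4 side, and in 5 of the 10 on the ZT16 side. Among genes at an unadjusted p under 0.05 (limma), 13.2% of those higher at ZT4 and 19.5% of those higher at ZT16 held them. The letters TTCNNNGAA, bound by STAT factors, were found in 4 of the 18, against 7.37% of tested genes. The NF-kB motif was found in 2 of the 18 (6.03% of tested genes), the E-box and the ROR element in 1 each and the D-box in 0. A match is a run of letters and not a measured site. Lrg1 and Cxcl1, also named on the ZT16 side, hold no TTGCNNAA there. The promoters of the Saa cluster and of Hpx, which hold it, are shown with TTGCNNAA in capitals:
Saa1, chr7:46742981-46743230, minus strand: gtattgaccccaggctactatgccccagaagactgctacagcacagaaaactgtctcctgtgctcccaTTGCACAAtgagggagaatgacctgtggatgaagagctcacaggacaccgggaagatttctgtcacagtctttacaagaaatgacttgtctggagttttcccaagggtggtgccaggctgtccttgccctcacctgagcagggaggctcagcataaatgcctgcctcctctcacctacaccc
Saa2, chr7:46751583-46751832, plus strand: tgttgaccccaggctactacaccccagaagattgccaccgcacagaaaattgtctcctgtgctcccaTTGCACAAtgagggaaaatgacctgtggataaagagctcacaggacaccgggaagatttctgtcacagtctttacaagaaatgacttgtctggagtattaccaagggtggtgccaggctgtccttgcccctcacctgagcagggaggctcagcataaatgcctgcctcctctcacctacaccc
Saa4, chr7:46732604-46732853, minus strand: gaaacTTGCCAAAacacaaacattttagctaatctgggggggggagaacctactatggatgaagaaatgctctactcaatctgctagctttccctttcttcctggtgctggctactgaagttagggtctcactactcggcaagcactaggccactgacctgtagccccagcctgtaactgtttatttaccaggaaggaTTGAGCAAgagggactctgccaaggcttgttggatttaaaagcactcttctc
Hpx, chr7:105600117-105600366, minus strand: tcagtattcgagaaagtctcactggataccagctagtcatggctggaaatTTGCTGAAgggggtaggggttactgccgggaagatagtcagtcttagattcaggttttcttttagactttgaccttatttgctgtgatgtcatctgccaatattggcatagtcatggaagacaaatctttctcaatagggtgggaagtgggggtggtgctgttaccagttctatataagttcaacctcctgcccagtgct
Compared without gaps and shifted by 1 base, the Saa1 and Saa2 sequences were the same at 197 of 249 bases (79.1%). Saa2 holds an extra c nearer the start, past which this shift puts the bases out of step. The share is therefore too low a measure of their likeness. As close copies, their matches to TTGCNNAA are not separate cases. Their capitals sit 182 and 183 bases before the start. In Saa4 the capitals sit 245 and 52 bases before the start, and in Hpx 200 bases before it. Whether their place goes with the signal was not tested.

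Clock genes differed in both directions. Among the activators, Rora, the gene of ROR alpha, had 12.3 and 12.0 rpbp at ZT4 and 6.9 and 5.5 rpbp at ZT16 (log2 difference 0.88, SE 0.20), without overlap between the times. It passed with 12 libraries and no longer did after rescaling (adjusted p of 0.0704, limma). Clock had 11.2 and 12.9 against 8.8 and 8.4 rpbp and Arntl 3.2 and 9.4 against 4.2 and 3.3 rpbp, with unadjusted p of 0.0698 and 0.353 in the limma fit. Arntl overlapped between the times, and its ZT4 libraries were apart.

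Among the 8 tested repressors, Nr1d1 was the one with an unadjusted p under 0.05 and a higher level at ZT4, and Per1 and Per2 were the ones with a higher level at ZT16. Over all genes 13.2% were higher at ZT4 and 4.0% higher at ZT16 at such a p. Per1 had 1.2 and 0.5 rpbp at ZT4 and 8.7 and 8.1 rpbp at ZT16 (log2 difference -2.37, SE 0.25), and Per2 had 9.2 and 4.4 against 34.2 and 22.6 rpbp (-1.96, SE 0.39). Both were clear of overlap and both passed with 12 libraries. The study reports a transcript antisense to Per2 that peaked at ZT4. The signal used here ignores strand, so the Per2 values may include it. Per3 had 5.9 and 0.9 against 6.2 and 12.1 rpbp and Cry1 had 2.6 and 4.0 against 6.2 and 4.8 rpbp, with unadjusted p of 0.0973 and 0.0667. Cry1 came under 0.05 after rescaling (0.0216, limma fit). Cry2, Bhlhb2, the gene of DEC1, and Nr1d2, the gene of REV-ERB beta, had unadjusted p of 0.852, 0.959 and 0.131, and the sign of Cry2 turned from 0.04 to -0.18 after rescaling.

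Among the output genes, Ccrn4l, the deadenylase nocturnin, had 4.3 and 3.8 rpbp at ZT4 and 12.2 and 13.7 rpbp at ZT16 and passed with 12 libraries. Dbp, a transcription factor driven directly by CLOCK and BMAL1, had 23.2 and 6.2 against 3.7 and 3.8 rpbp. Both ZT4 libraries of Dbp were higher, yet they were so far apart that its unadjusted p was 0.0589 in the limma fit. Tef, Hlf, Nfil3 and Csnk1d had unadjusted p from 0.235 to 0.806.

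In the 12 libraries, ZT4 and ZT16 caught these genes at different places of their daily course. Nr1d1 was about as high at ZT8 (40.6 and 28.3 rpbp) as at ZT4 and was at its lowest at ZT16. Per1 and Ccrn4l were highest at ZT12, with 16.8 and 30.4 rpbp and with 38.9 and 35.3 rpbp, so that ZT16 was on their falling side. Dbp peaked at ZT8 (50.5 and 42.6 rpbp), after ZT4, and Arntl was highest at ZT20 (10.4 and 9.1 rpbp), with low values at ZT8 and ZT12 in between. Cry1 was highest at ZT20 (11.3 and 13.9 rpbp), above its level at both times compared.

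**Figure D4:**
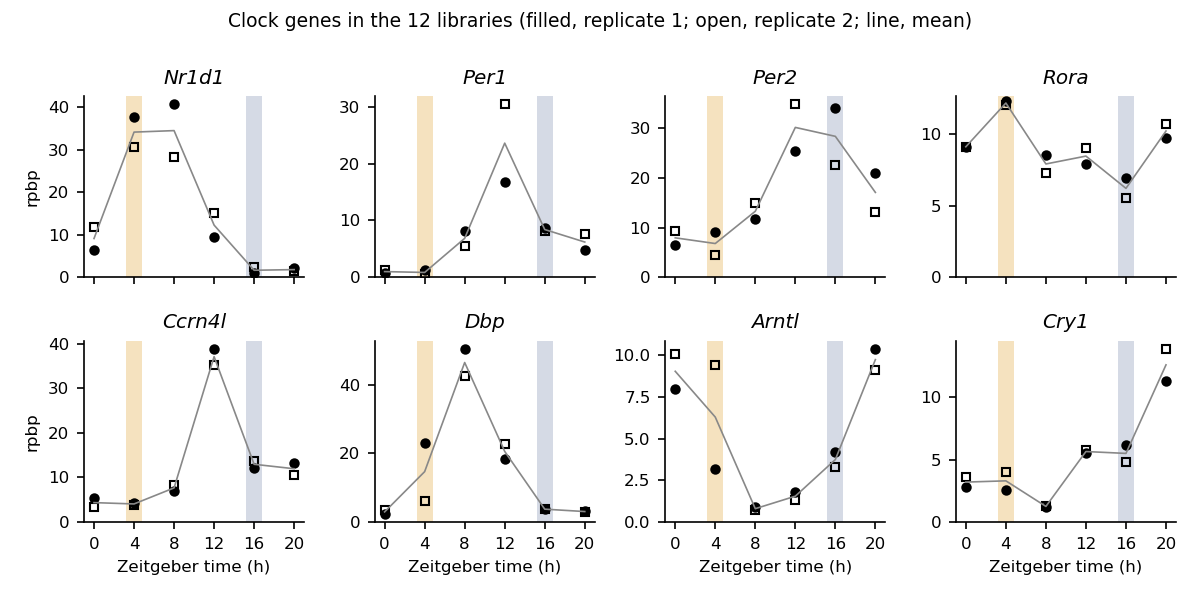
Signal in rpbp of 8 clock genes in all 12 libraries by zeitgeber time (filled circles replicate 1, open squares replicate 2, line the mean), with ZT4 shaded orange and ZT16 shaded blue. Nr1d1 is at 37.6 and 30.6 rpbp at ZT4 and at 1.0 and 2.3 rpbp at ZT16, Per1 and Per2 are higher at ZT16 and the 2 ZT4 libraries of Dbp and Arntl lie apart.

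The replicates of ZT4 differed at the same genes. Replicate 1 was higher in Dbp (23.2 against 6.2 rpbp), Tef (20.1 against 9.9 rpbp), Per3 (5.9 against 0.9 rpbp) and Bhlhb2 (13.6 against 7.2 rpbp), and replicate 2 was higher in Arntl (9.4 against 3.2 rpbp). Npas2, a partner of BMAL1 that stayed under the limit, had 0.8 rpbp in replicate 1 and 3.2 rpbp in replicate 2. These genes were chosen after their values were seen. Per1 has 2 start sites in the promoter table. The 250 bases before the first hold CACGTG, the E-box that CLOCK and BMAL1 bind, which 10.3% of tested genes with an entry hold. Those before the second (chr11:69099902-69100151) hold no CACGTG. The first is shown with the E-box in capitals:
Per1, chr11:69098699-69098948, plus strand: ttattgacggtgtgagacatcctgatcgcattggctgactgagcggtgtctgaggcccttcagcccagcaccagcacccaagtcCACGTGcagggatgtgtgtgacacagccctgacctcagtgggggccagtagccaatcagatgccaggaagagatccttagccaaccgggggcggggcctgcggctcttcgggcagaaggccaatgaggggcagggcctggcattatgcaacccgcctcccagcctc

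In the lists of amino acid breakdown, gluconeogenesis and fatty acid oxidation, the genes with an unadjusted p under 0.05 were all higher at ZT4, as were 76.8% of all genes with such a p (46% after rescaling). All 24 members of the list of urea cycle and amino acid breakdown genes were tested, and 12 had an unadjusted p under 0.05, all 12 higher at ZT4 (10 after rescaling), beside 13.2% of all genes higher at ZT4 (6.03% after rescaling). With 12 libraries 3 passed, and 0 after rescaling. The median log2 difference was 0.81 (0.58 after rescaling). Otc, the urea cycle enzyme that joins ornithine and carbamoyl phosphate, had 21.4 and 26.8 rpbp at ZT4 and 8.6 and 10.1 rpbp at ZT16. Gls2, the liver glutaminase, had 36.0 and 53.7 against 19.8 and 16.4 rpbp, and Hgd, of tyrosine breakdown, 64.8 and 81.5 against 36.7 and 36.9 rpbp. Gls2 and Cps1 were chosen after their values were seen. Cps1, the first enzyme of the cycle, had 259.9 and 269.1 against 171.9 and 323.8 rpbp, where the ZT16 libraries lay on either side of ZT4.

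In gluconeogenesis, 3 of 10 tested genes had an unadjusted p under 0.05, all higher at ZT4 (2 after rescaling), again beside 13.2% and 6.03% of all genes, and 0 passed with 12 libraries. G6pc, which releases free glucose, had 86.7 and 149.0 rpbp at ZT4 and 43.5 and 38.3 rpbp at ZT16, and Sds, serine dehydratase, 41.0 and 71.0 against 16.7 and 21.4 rpbp. Pck1, the enzyme most often read as a mark of the pathway, had 229.6 and 376.6 against 162.9 and 327.3 rpbp, and its times overlapped (chosen after its values were seen). Tat, tyrosine aminotransferase, was the other gene of the 3, with 198.6 and 255.5 against 148.4 and 82.9 rpbp, and no longer had a p under 0.05 after rescaling. Among 15 tested genes of PPAR alpha and fatty acid oxidation, 5 had an unadjusted p under 0.05, all higher at ZT4, and 5 after rescaling. With 12 libraries 1 passed, Cpt1a, and 0 after rescaling. Cpt1a, which admits fatty acids to mitochondria, had 30.2 and 34.4 against 14.5 and 17.0 rpbp. Acadm, of medium-chain oxidation, had 11.5 and 13.1 against 5.7 and 6.9 rpbp.

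Bile acid genes stood on both sides. Of 16 tested, 7 were higher at ZT4 and 2 higher at ZT16 at an unadjusted p under 0.05 (4 and 3 after rescaling), beside 13.2% and 4.0% of all genes (6.03% and 7.07%). The synthetic enzymes Cyp7a1, the rate-limiting one, and Cyp27a1 were the 2 higher at ZT16, with 4.3 and 6.1 against 19.4 and 32.2 rpbp and with 30.8 and 38.6 against 65.8 and 61.7 rpbp. The transporters Abcg5, Abcg8 and Abcb4, which carry cholesterol and phospholipid into bile, were higher at ZT4, as was Nr0b2 (SHP), a repressor of bile acid synthesis, with 24.2 and 24.5 against 8.0 and 0.6 rpbp. Of the synthesis enzymes Cyp8b1 stood with the transporters (32.2 and 48.5 against 22.3 and 20.1 rpbp). Cyp7a1, Abcg5, Abcg8 and Abcb4 passed with 12 libraries, and after rescaling Abcb4 no longer did (adjusted p of 0.0522, limma). The genes of this paragraph other than Abcg5 and Abcb4 were chosen after their values were seen.

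Genes of glucose use and heme supply stood on both sides. Of 13 tested genes of glucose use, 4 were higher at ZT4 and 2 higher at ZT16 at an unadjusted p under 0.05 (1 and 2 after rescaling). Pfkfb3, a regulator of glycolysis, had 2.0 and 0.9 rpbp at ZT4 and 4.4 and 10.4 rpbp at ZT16. Its times did not overlap. Alas1, the rate-limiting enzyme of heme synthesis, had 19.5 and 11.5 against 76.0 and 275.4 rpbp. Abcc2, a canalicular exporter of conjugates, went the other way, with 228.6 and 178.6 against 76.2 and 77.1 rpbp. Alas1 and Abcc2 passed with 12 libraries. Of 16 tested genes of fatty acid synthesis, 3 were higher at ZT4 and 1, Acacb, was higher at ZT16 (4.9 and 2.9 against 10.3 and 7.9 rpbp) at an unadjusted p under 0.05, and 1 in each direction after rescaling. Over all genes 13.2% and 4.0% were, and 6.03% and 7.07% after rescaling.

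At ZT16 several groups of genes differed between the replicates, and their values are a description. The clearest was the unfolded protein response, chaperones and folding enzymes of the endoplasmic reticulum. Of its 16 tested genes, 14 were over 1.5-fold higher in ZT16 replicate 1 than in replicate 2 on the log2(rpbp + 1) scale, and 0 over 1.5-fold lower, where 17.6% and 8.58% of all genes were. Hspa5 (BiP) had 76.1 rpbp in replicate 1 and 13 rpbp in replicate 2, against 14.4 and 9.9 rpbp at ZT4. Hyou1 had 63.4 and 8.2 rpbp, Creld2 41.4 and 3.0 rpbp and Hsp90b1 156.6 and 26.5 rpbp. Replicate 2 was close to the ZT4 libraries in all 4 of these. The summed level of the list was 211 and 172 rpbp at ZT4, 729 rpbp in ZT16 replicate 1, 199 rpbp in ZT16 replicate 2 and between 245 and 439 rpbp in the libraries of the other times. The median difference of the list was -0.90. All 16 genes were above both ZT4 libraries in ZT16 replicate 1 and 4 of them in replicate 2. Over all 5278 genes, 1455 and 1051 were. Of the 16 genes 1, Xbp1, the transcription factor of the response, had an unadjusted p under 0.05 in the limma fit (22.3 and 18.1 against 37.8 and 44.3 rpbp). After rescaling 2 of the 16 had such a p and were higher at ZT16. Over all genes 4.0% were higher at ZT16 at such a p, and 7.07% after rescaling.

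Of 10 tested genes of cholesterol synthesis and uptake, 7 were over 1.5-fold higher in ZT16 replicate 1 than in replicate 2 and 0 lower, a median of 1.46 on the log2 scale. Of the 10, 8 were below both ZT4 libraries in replicate 2 and 5 above both in replicate 1. Over all 5278 genes, 3427 were below both in replicate 2 and 1455 above both in replicate 1. Genes of lipogenesis were also lower in replicate 2. Scd1, the stearoyl-CoA desaturase, had 48.7 rpbp in replicate 1 and 1.5 rpbp in replicate 2, Fasn 52.2 and 8.4 rpbp, and Srebf1, the gene of their activator SREBP-1, 65.8 and 13.2 rpbp. At ZT4 the same 3 genes had 25.6 and 20.8, 54.2 and 22, and 90.9 and 54.1 rpbp, so that replicate 2 of ZT16 was the lowest of the 4 libraries in each. Of the 16 tested genes of fatty acid synthesis, 8 were over 1.5-fold higher in replicate 1 and 2 over 1.5-fold higher in replicate 2.

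Of the 12 tested genes of the glucocorticoid receptor and its targets, 5 were over 1.5-fold higher in ZT16 replicate 2 and 2 in replicate 1. Between the times, 4 of the 12 (Per1, Fkbp5, Mt2 and Zbtb16) were higher at ZT16 and 1, Tat, higher at ZT4 at an unadjusted p under 0.05 (4 and 0 after rescaling), beside 4.0% and 13.2% of all genes. Zbtb16, a transcription factor, had 4.1 and 7.5 rpbp at ZT4 and 13.2 and 60.5 rpbp at ZT16, and Fkbp5, a feedback regulator of the receptor, 1.7 and 2.0 against 3.7 and 15.0 rpbp. Both were above ZT4 in each ZT16 library, and most so in replicate 2. Gadd45g, a stress response gene, had 4.4 and 5.1 against 4.5 and 40.5 rpbp, and the metallothionein gene Mt1 1.4 and 5.6 against 2.0 and 27.3 rpbp, so that these were above ZT4 in replicate 2 alone. Lpin1, a phosphatidate phosphatase and nuclear coactivator, had 4.3 and 103.0 rpbp against 6.0 and 5.4 rpbp at ZT4. Igf1, the insulin-like growth factor gene, had 20.7 and 21.5 rpbp at ZT4 and 14.2 and 95.7 rpbp at ZT16, and Onecut1, a hepatocyte transcription factor, 3.1 and 5.9 against 10.3 and 57.1 rpbp. In Lpin1 and Igf1 replicate 2 alone was above ZT4, and in Onecut1 both replicates were. Tat, a gene long known as a glucocorticoid target, had 148.4 rpbp in replicate 1 and 82.9 rpbp in replicate 2. Apart from Xbp1 and Tat, the genes named for a gap between the ZT16 replicates were chosen after their values were seen. What set the replicates apart was not tested.

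**Figure D5:**
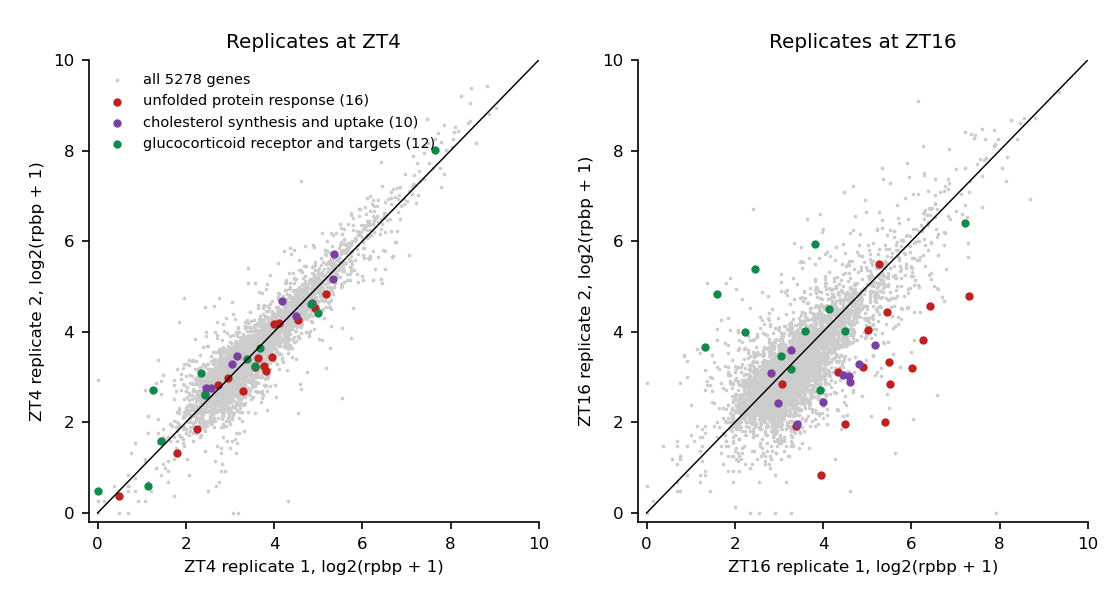
Replicate 1 on the x axis against replicate 2 on the y axis at ZT4 (left) and ZT16 (right), both as log2(rpbp + 1), for 5278 genes, with the line of equal values. The 16 unfolded protein response genes (red) and the 10 cholesterol genes (purple) lie near the line at ZT4 and mostly under it at ZT16, and 5 of the 12 glucocorticoid genes (green) lie well above it at ZT16.

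Most acute phase genes stood above ZT4 in both ZT16 libraries, though their ZT16 replicates also differed. In replicate 1, 21 of the 21 acute phase genes were above both ZT4 libraries, and in replicate 2, 19 of 21. Over all 5278 genes, 1455 and 1051 were. On the log2(rpbp + 1) scale, 3 of the 21 were over 1.5-fold higher in ZT16 replicate 1 and 6 in replicate 2. Those shares were 14.3% and 28.6%, against 17.6% and 8.58% of all genes. Per1 and Ccrn4l had close ZT16 values, as given above.

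The remaining lists are given by their counts at an unadjusted p under 0.05, beside 13.2% of all genes higher at ZT4 and 4.0% higher at ZT16 (6.03% and 7.07% after rescaling). In heat shock and cold response, 2 of 10 were higher at ZT16 (3 after rescaling), among them the chaperone gene Hspa8 (8.1 and 4.8 against 13.4 and 20.1 rpbp), and 1 was higher at ZT4, the cold-inducible Cirbp (7.9 and 11.4 against 5.5 and 4.4 rpbp). In insulin and fasting signalling, 2 of 11 were higher at ZT4, one of them Irs1, an adaptor of the insulin receptor (36.2 and 28.7 against 18.2 and 17.2 rpbp). In NAD synthesis and sirtuins, Tdo2 was higher at ZT4 and Naprt1, which starts NAD synthesis from nicotinic acid, higher at ZT16 (11.7 and 11.8 against 20.8 and 22.3 rpbp), of 10 tested. Of 25 liver transcription factors 3 were higher in each direction (2 at ZT4 and 5 at ZT16 after rescaling). Of 12 genes of growth hormone and IGF 2 were higher in each (0 and 2 after rescaling), and of 17 apolipoprotein and lipid export genes 2 at ZT4 (1 after rescaling).

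The libraries carried the transcripts of hepatocytes. Of 12 hepatocyte markers 11 were tested, and they went both ways. At an unadjusted p under 0.05 (limma), 3 were higher at ZT4 and 1 higher at ZT16 (2 and 1 after rescaling). Over all genes 13.2% and 4.0% were, and 6.03% and 7.07% after rescaling. The median log2 difference of the markers was 0.16 (-0.07 after rescaling). Alb, the albumin gene, had 463.9 and 450.1 rpbp at ZT4 and 282.4 and 160.3 rpbp at ZT16, while Hp was higher at ZT16, as given above. Of the markers of other cells, 3 of 12 for macrophages, 4 of 12 for endothelium, 0 of 12 for stellate cells, 1 of 8 for cholangiocytes and 1 of 14 for blood passed the limit. Of the 4 tested endothelial markers 1, Clec4g of sinusoidal endothelium, had an unadjusted p under 0.05 (limma fit). It had 4.3 and 4.1 rpbp at ZT4 and 8.8 and 6.7 rpbp at ZT16. Eng had 6.6 and 6.7 against 8.4 and 7.5 rpbp (unadjusted p of 0.279, limma fit), and the median log2 difference of the 4 was -0.18. Of 77 ribosomal protein genes, 9 were tested and 0 had an unadjusted p under 0.05 in the limma fit of the deposited values (1 after rescaling). Over all genes 17.2% had such a p (13.1% after rescaling).

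Most genes with an unadjusted p under 0.05 did not have both ZT4 and ZT16 as their extremes of the day. Of the 698 genes higher at ZT4, 322 had their highest time-point mean at ZT4, 203 at ZT8 and 92 at ZT20, and 549 had their lowest at ZT16. In 234 ZT4 was the highest and ZT16 the lowest. Of the 211 genes higher at ZT16, 136 were highest at ZT16 and 59 at ZT12, and 75 were lowest at ZT4 and 75 at ZT8. In 37, such as Hpx and Orm1, ZT16 was the highest and ZT4 the lowest, with a tie given to the earlier time. Saa1 was counted there with a mean of 0.1 rpbp at both ZT4 and ZT20. Hpx was nearly as low at ZT8 and ZT20 (34.2 and 34.3 rpbp) as at ZT4 (33.5 rpbp). ZT16 held the lowest mean of 1750 of all 5278 genes, so a low ZT16 was common over all genes as well.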

How the data were processed

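The values are the signal deposited by the authors. According to the methods and the labels, reads were aligned with TopHat to mm9 (CASAVA 1.7 is also named in the processing notes), uniquely mapped reads were kept, and coverage over the merged exons of a gene symbol, strand ignored, was divided by exon length and scaled to an equal number of mapped reads. The deposited signal has 1 decimal and holds no read counts per gene. The study's methods list the mapped reads of each library, which were not used here, and no counting interval was given. Sums per library were 122892 to 129031 rpbp.

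Symbols over 6 rpbp in at least 1 of the 4 libraries were compared on log2(rpbp + 1) with limma 3.58.1 in R 4.3.3 (2 replicates a time, two-sided, Benjamini-Hochberg adjustment over 5278 genes), and the pseudocount makes differences of low genes too small. Nothing in the labels says how replicates were shared out among animals, so p-values measure the spread between these libraries. Libraries were also rescaled to equal medians by each library's median ratio to the gene-wise geometric mean. Genes were named by rule: 12 in each direction with the smallest unadjusted p among genes whose times did not overlap in either scaling, since none passed the adjusted threshold, 1 symbol per overlapping locus, then the tested clock genes, and from each other list 2, by unadjusted p. A few genes that the rule names are not reported here. The members and lists were chosen with earlier results of these data known. The script was tested on simulated data. Other scalings, filters, pseudocounts, GC correction, fits of 8 and 12 libraries, a replicate block and leaving out each library were tried. Promoters were read with Python 3.11.15 and pandas 2.3.3, and plots drawn with matplotlib 3.10.9.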

Additional observations from a re-analysis of the deposited data

How the results depend on the processing

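Between ZT4 and ZT16, genes at an adjusted p under 0.05 (limma) were 0 in the 4 libraries as deposited, 39 and 143 with 8 and 12 libraries, and 37 and 107 in those fits after rescaling to equal medians. Genes at an unadjusted p under 0.05 were 909, against 1455 over 3 rpbp, 391 over 12 rpbp, 2612 with no filter and 263 to 1382 with 1 library left out. Those higher at ZT4 were 698, against 318 after rescaling, 1138, 280 and 2017 under those 3 filters, 171 to 1028 with 1 library left out, 346 with the GC correction, 338 with GC correction and replicate block, and 432 and 416 with 8 and 12 libraries rescaled. Those higher at ZT16 were 211, against 373 after rescaling, 317, 111 and 595 under the filters, 92 to 366 with 1 library left out, 399 with the GC correction, 423 with GC correction and replicate block, and 512 and 517 with 8 and 12 libraries rescaled. Genes whose times did not overlap were 2855, against 4690, 1241 and 7651 under the filters and 3652 to 4478 with 1 library left out, where 1 time then has a single library. The fits of 8 and 12 rescaled libraries were chosen after seeing the data.

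The gap between replicates 1 and 2 at ZT4 was weakly correlated over genes with the gap at ZT16 (0.0903). This describes these 4 libraries and cannot show that the 2 series were unpaired. With the replicate block 0 genes passed the adjusted threshold and 807 had an unadjusted p under 0.05 (586 higher at ZT4, 221 higher at ZT16). As 0 genes passed without the block as well, no named gene could change its call. Of 84 named genes, 33 passed the adjusted threshold in at least 1 of 20 settings, all in fits of 8 or 12 libraries. In at least 1 setting 10 of the 84 turned sign. Cry2 (0.04) became -0.18 after rescaling, -0.088 without ZT4 replicate 1, -0.05 without ZT16 replicate 2, -0.12 with the GC correction and with GC correction and block, and -0.18 and -0.17 with 8 and 12 libraries rescaled. Csnk1d became -0.15 after rescaling in 4, 8 and 12 libraries, -0.11 without ZT16 replicate 2, and -0.13 with the GC correction, block or not. Ubtf became -0.15 after rescaling and in 8 rescaled libraries, -0.14 in 12, -0.18 without ZT16 replicate 2 and -0.042 with the GC correction, block or not. Without ZT4 replicate 2, Alas2 became 0.08, Arntl -0.17, Bhlhb2 0.39 and Tef 0.18. Without ZT16 replicate 2, Alas2 became 0.17 and Nfil3 0.02, and without ZT4 replicate 1 Nfil3 became 0.16. Without ZT16 replicate 1, Bhlhb2 became 0.67, Csf1r 0.037 and Gas5 0.29. With 1 library left out, the other ends of these ranges were -0.284 for Alas2, 1.137 for Arntl, -0.726 for Bhlhb2, -0.384 for Csf1r, 0.217 for Csnk1d, -0.635 for Gas5, -0.399 for Nfil3, -0.771 for Tef and 0.304 for Ubtf. The cause was not tested. Read counts per gene are not in the values used here, and 2 libraries a time limit the precision.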
